A study of Bos indicus with 8 samples.

Results

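The COPII coat is the protein shell that forms vesicles on the endoplasmic reticulum and carries newly made secretory and membrane proteins towards the Golgi. Its 10 genes, SEC24A, SEC24B, SEC24C, SEC24D, SEC23A, SEC23B, SEC13, SEC31A, SAR1A and SAR1B, were followed in blastocysts of Bos indicus (zebu) cattle. The genes were chosen by name as the parts of the coat, with SEC24D selected on its vitrified over control value in these arrays, so that this contrast is given for all of them as a description with no test. They are 10 of the 15229 genes named on the platform, and 19 of its 43794 gene probes carry their symbols. A single probe stood for 6 of the genes and several probes for the other 4, and all 19 probes had enough signal to be tested. The study asked how transcript levels of embryos produced in vitro differ after vitrification, which is cooling so fast that the solution turns to glass. Blastocysts were graded 144 to 156 h after insemination with semen of a Bos indicus bull and were divided into a vitrified and a control group. The vitrified group passed through 15% ethylene glycol, 15% dimethylsulfoxide and 0.5 M sucrose, was plunged on a Cryotop (a thin strip that holds embryos in very little fluid), spent at least 30 min in liquid nitrogen and was warmed. The controls waited in holding medium on the bench, without cryoprotectant or cooling, and both groups were then cultured for 4 h. Embryos of normal appearance after this culture were kept, so both groups leave out embryos that did not recover, and each pool held 10 embryos.

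Coat formation starts with SAR1, a small GTPase that inserts into the membrane when it binds GTP. SAR1 recruits the inner coat of SEC23, which speeds GTP hydrolysis by SAR1, and SEC24, which binds the export signals of cargo proteins. SEC13 and SEC31 then form the outer cage. Mammals have 4 SEC24 paralogs, of which SEC24A and SEC24B form one subfamily and SEC24C and SEC24D another, and the paralogs differ in the cargo they prefer. In the mouse, loss of SEC24D is lethal in the early embryo. Blastocysts secrete through this route, and the trophectoderm of ruminants releases interferon tau.

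Each of 8 arrays on 2 slides carried 1 vitrified and 1 control pool in different dyes. On areas 1 and 3 of a slide Cy5 (red) marked the vitrified pool, and on areas 2 and 4 Cy3 (green) did. With the dye effect removed, arrays on neighbouring areas (1 and 2, or 3 and 4) correlated over all tested probes at r of 0.823 to 0.854, and other arrays at -0.0979 to 0.316. The labels pair the arrays otherwise: each biological replicate number stands on the same area of both slides, in 1 dye orientation, while the design text speaks of dye swaps. From the correlations, each neighbouring pair was taken as a dye swap of the same pools and averaged, which gave 4 pairs: pairs 1 and 2 on the first slide and pairs 3 and 4 on the second. Values below are log2 ratios of vitrified over control, so that 1 is a doubling and 0 is no difference, and SDs are over the 4 pairs. Nothing says that the pools came from separate cultures, so the p-values measure only the spread between these pools, and the number of arrays limits the precision. Median intensity was 106 to 153 in Cy5 and 149 to 243 in Cy3 over the arrays. Between 19.2% (the second slide area 1) and 80.3% of probes were above background, a limit set 2 SD over the mean of the negative controls. Between 72.5% and 83.6% did so when that limit was set from the median and the median absolute deviation, a choice made after seeing the data. All 6 trophectoderm and all 3 inner cell mass markers checked were above the latter limit on at least 7 arrays in both channels. So were 4 of 6 cumulus cell, 2 of 5 oocyte and 1 of 3 sperm markers. At least 72.5% of probes passed that limit on every array, so passing it says little of cell type.

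SEC24D, a cargo adaptor of the inner coat, was the COPII gene with the highest ratio of vitrified over control, 1.87-fold. Its only probe, EMBV3_33668, gave log2 ratios of 0.80, 0.52, 1.27 and 1.03 in pairs 1 to 4, a mean of 0.91 ± 0.32 (SD, n = 4). No other probe of the gene could be set beside it. The vitrified pool was above the control pool in every pair and on 8 of 8 arrays. With the vitrified pool in Cy5, the difference was already visible in the scanned spots before any correction. On the arrays with the vitrified pool in Cy5, the raw vitrified intensities of pairs 1 to 4 were 1399, 833, 2017 and 1426, and the control intensities in Cy3 were 940, 683, 868 and 736. On the arrays with the dyes exchanged, the raw vitrified intensities in Cy3 were 1679, 981, 2147 and 1426, and the control intensities in Cy5 were 894, 571, 818 and 678. In each of these 8 hybridizations the vitrified spot was the brighter one. Every array was brighter in Cy3 by its median, however, so the raw values with the vitrified pool in Cy3 say little by themselves. On that array of pair 2, the median was 220 in Cy3 and 127 in Cy5.

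The pools themselves could be followed by separating the channels after normalization between them. SEC24D had normalized log2 levels of 10.52, 9.76, 10.98 and 10.51 in the vitrified pools of pairs 1 to 4. The control pools were at 9.72, 9.23, 9.71 and 9.48. The lowest vitrified pool, in pair 2, stood just above the highest control pool, in pair 1, so that the groups did not overlap. Pair 2 also had the lowest control pool, and pair 3 had the highest vitrified pool. The vitrified pools spread more widely, with an SD of 0.50, than the control pools, with an SD of 0.23. Of all tested probes, 1.58% had an SD at least as large among their vitrified pools and 18.1% among their control pools. In pools of whole embryos, more cells of a type and more RNA per cell cannot be told apart. The summed log2 level of the 6 trophectoderm markers was 16.14 to 16.39 in the vitrified pools and 15.87 to 16.13 in the control pools, barely without overlap. The sum follows its brightest probes, KRT8 at 0.45 ± 0.29 and TFAP2C at 0.09 ± 0.18 (log2 ratio, SD, n = 4). Dimmer were KRT18 at 0.57 ± 0.81 and IFNT at 0.80 ± 0.52, and dimmest CDX2 at 0.10 ± 0.26 and GATA3 at 0.05 ± 0.16. Summed, the 2 primitive endoderm markers on the platform were at 10.74 to 11.23 in the vitrified and 11.47 to 11.94 in the control pools. These levels did not overlap either, but the sum rests on PDGFRA, at -0.86 ± 0.43. SOX17 had a low signal and was at 0.04 ± 0.06. The part of either in the SEC24D value was not tested. The summed inner cell mass markers overlapped, at 11.83 to 12.18 and 11.95 to 12.31, but the genes differed. NANOG was at -0.49 ± 0.25, SOX2 at -0.12 ± 0.23 and POU5F1 at 0.08 ± 0.09. NANOG levels overlapped, at 9.57 to 10.83 in the vitrified and 10.13 to 11.41 in the control pools. The part of NANOG-expressing cells in the SEC24D value was not tested. The summed cumulus markers also overlapped, at 9.58 to 10.73 and 10.15 to 10.41. So did the oocyte markers, at 9.34 to 9.49 and 9.39 to 9.45, and the sperm markers, at 8.52 to 8.91 and 8.52 to 8.85.

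**Figure D1:**
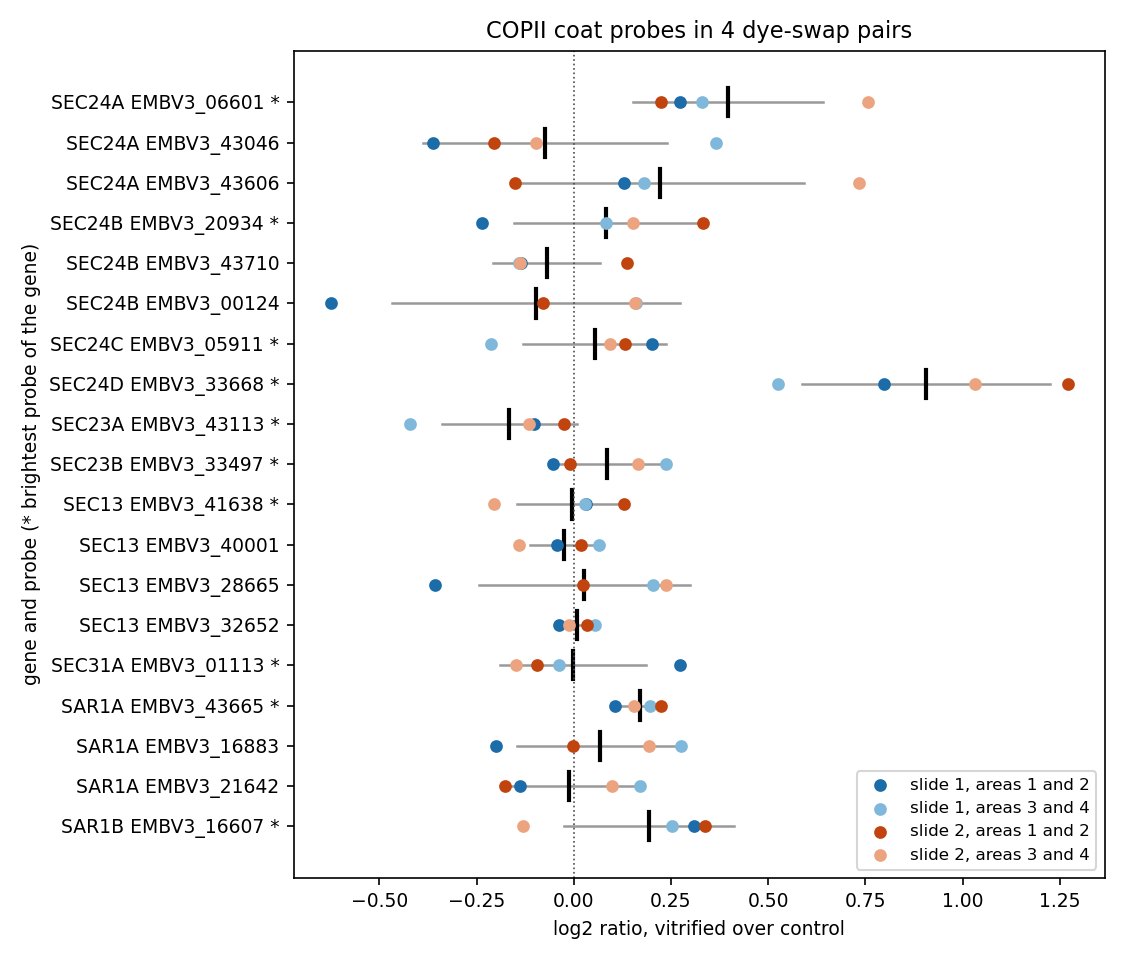
Log2 ratio of vitrified over control (horizontal axis) for the 19 COPII probes (vertical axis, an asterisk marks the brightest probe of a gene). Points are the 4 dye-swap pairs, the black tick is their mean and the grey line is the mean ± 1 SD. The 4 SEC24D points lie between 0.52 and 1.27, and the points of SEC24A EMBV3_06601 and SAR1A EMBV3_43665 also lie above 0.

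SEC24A, a paralog of the other subfamily that also selects cargo, had the next value. Its brightest probe, EMBV3_06601, was at 0.27, 0.33, 0.22 and 0.76 in pairs 1 to 4, a mean of 0.40 ± 0.24 (SD, n = 4), or 1.32-fold. It was above 0 on 7 of 8 arrays, with -0.02 on the lowest and 0.91 on the highest. The normalized log2 levels were 10.07 to 10.21 in the vitrified pools and 9.46 to 9.91 in the control pools, without overlap. The control pools spread more than the vitrified pools here, and pair 4, which had the highest ratio, had the lowest control pool. The other SEC24A probes did not share this value. EMBV3_43606 averaged 0.22 ± 0.37 with pairs at 0.13, 0.18, -0.15 and 0.73, and EMBV3_43046 averaged -0.07 ± 0.31 with pairs at -0.36, 0.37, -0.20 and -0.10. EMBV3_43606 was likewise highest in pair 4, while EMBV3_43046 was below 0 there, so the SEC24A value depended on the probe. The mean over the 3 probes was 0.18.

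SEC24B, which with SEC24A makes up 1 subfamily, stayed near 0 with pairs on both sides. Its brightest probe, EMBV3_20934, was at -0.24, 0.08, 0.33 and 0.15, a mean of 0.08 ± 0.24 (SD, n = 4). EMBV3_43710 averaged -0.07 ± 0.14 and EMBV3_00124 averaged -0.10 ± 0.37, the latter from -0.63 in pair 1 to 0.16 in pair 2. SEC24C, the paralog closest to SEC24D, was at 0.20, -0.21, 0.13 and 0.09, a mean of 0.05 ± 0.18. Both signs depended on the scaling, since centring each array on its median in place of loess put SEC24B at -0.00016 and SEC24C at -0.03. Levels of vitrified and control pools overlapped for both genes, at 11.86 to 12.09 and 11.66 to 12.10 for SEC24B and at 12.19 to 12.32 and 12.06 to 12.52 for SEC24C.

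Within pairs, SEC24D exceeded the mean of its 3 paralogs by 0.72, 0.46, 1.04 and 0.70, a mean difference of log2 ratios of 0.73 ± 0.24 (SD, n = 4). The difference was above 0 in every pair. SEC24D was chosen for its ratio, so these differences describe it and test nothing. Against single paralogs the difference was 0.85 ± 0.24 for SEC24C, 0.82 ± 0.26 for SEC24B and 0.51 ± 0.38 for SEC24A. The distance to SEC24A varied most, from 0.20 in pair 2 and 0.27 in pair 4 to 0.53 in pair 1 and 1.05 in pair 3. Against the mean of the other 9 coat genes SEC24D was higher by 0.82 ± 0.29.

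**Figure D2:**
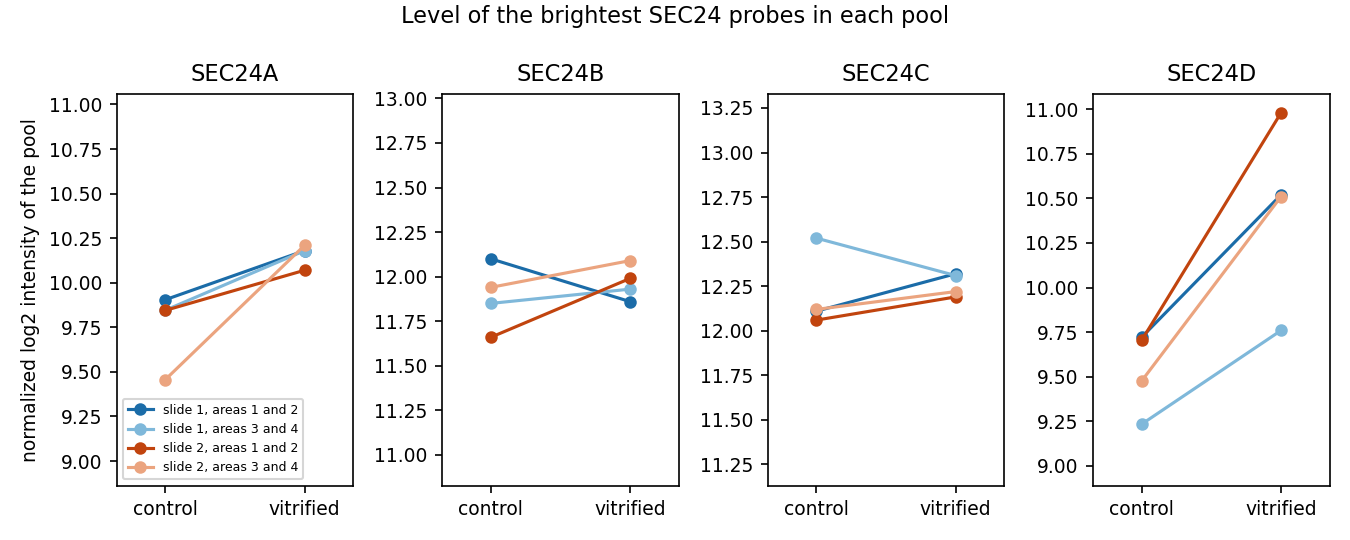
Normalized log2 intensity (vertical axis, with the same span in each panel) of the brightest probe of each SEC24 gene in the control and vitrified pools. Lines join the pools of a dye-swap pair, and each line of SEC24D and SEC24A climbs from control to vitrified, while lines of SEC24B and SEC24C run both ways. Heights cannot be compared between panels, since each panel is another probe.

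The SEC23 paralogs, the GTPase-activating partners of SEC24 in the inner coat, had mean ratios on opposite sides of 0. SEC23A was at -0.10, -0.42, -0.02 and -0.12, a mean of -0.17 ± 0.17 (SD, n = 4), below 0 in every pair. This sign was not kept in the authors' deposited table, where SEC23A was at 0.10, -0.43, 0.18 and 0.14, a mean of -0.003, and without pair 2 the mean of the scanner values was -0.08. Its normalized log2 levels were 6.97 to 7.05 in the vitrified pools and 7.07 to 7.39 in the control pools, which did not overlap, but its mean log2 intensity of 7.12 was low. SEC23B was at -0.05, 0.24, -0.01 and 0.17, a mean of 0.09 ± 0.14, and its pool levels overlapped, at 8.57 to 8.75 and 8.33 to 8.76. SEC23A was below SEC23B in 4 of 4 pairs, by -0.25 ± 0.30 on average, a mean smaller than its SD. In the authors' deposited table the order turned in 3 of 4 pairs, with differences of 0.20, -0.79, 0.19 and 0.11.

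The outer cage genes averaged near 0, within their spread over pairs. SEC31A, its rod-like subunit, was at 0.27, -0.04, -0.09 and -0.15 in pairs 1 to 4, a mean of -0.002 ± 0.19 (SD, n = 4). SEC13, the propeller protein that pairs with SEC31A and also serves in nuclear pores, was at 0.03, 0.03, 0.13 and -0.20 with its brightest probe, a mean of -0.003 ± 0.14. Its other probes averaged -0.02 ± 0.09 (EMBV3_40001), 0.03 ± 0.27 (EMBV3_28665) and 0.009 ± 0.04 (EMBV3_32652). The 4 SEC13 probes thus lay within 0.05 of each other in their means, against 0.47 for the 3 SEC24A probes, 0.18 for the 3 SEC24B probes and 0.18 for the 3 SAR1A probes. Vitrified and control levels overlapped for SEC31A, at 12.52 to 12.89 and 12.62 to 12.76, and for SEC13, at 8.26 to 8.37 and 8.14 to 8.47.

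Both GTPases that start the coat, SAR1A and SAR1B, had mean ratios above 0. The brightest SAR1A probe, EMBV3_43665, was at 0.11, 0.20, 0.22 and 0.16, a mean of 0.17 ± 0.05 (SD, n = 4). It was above 0 in all 4 pairs but on 5 of 8 arrays, as it was brighter in Cy5 by 0.22, more than its ratio. Its pool levels overlapped, at 8.35 to 8.66 in the vitrified and 8.25 to 8.48 in the control pools, and its other probes averaged 0.07 ± 0.21 (EMBV3_16883) and -0.01 ± 0.17 (EMBV3_21642). In the authors' deposited table EMBV3_43665 was at -0.006, 0.006, 0.55 and 0.34, so that neither the narrow spread nor the sign in all pairs was kept there. The mean over the 3 probes was 0.08, less than that of the brightest by over 1.5 times. SAR1B, the form needed for chylomicron export in the human intestine, was at 0.31, 0.25, 0.34 and -0.13, a mean of 0.19 ± 0.22. Its vitrified level in pair 4 was the lowest of the 4, and levels overlapped, at 11.50 to 11.69 and 11.32 to 11.63. The SAR1 paralogs differed by -0.02 ± 0.21 (SAR1A minus SAR1B), with SAR1A higher in 1 of 4 pairs.

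Over the coat as a whole, the brightest probes of 7 of 10 genes averaged above 0, and the median of the 10 log2 ratios was 0.08. Among all 13064 named genes tested, 52.2% averaged above 0 and the median was 0.004. Without pair 1 the COPII median was 0.14, and with median centring it was 0.02. With median centring, SEC24B (-0.00016) and SEC24C (-0.03) also fell below 0, so the count above 0 depended on the normalization. Pair by pair, 7, 7, 7 and 6 of the 10 genes were above 0. The COPII median was 0.15, 0.14, 0.18 and 0.12 in pairs 1 to 4, and 51.5%, 50.9%, 53.0% and 49.3% of all genes were above 0 there. In the vitrified against control fit, limma called 0 of 34607 probes at an adjusted p under 0.05 (0%). The smallest adjusted p was 0.462, and 2677 probes (7.74%) had an unadjusted p under 0.05. Of the 19 COPII probes, 3 were above 0 in all 4 pairs (SEC24D, SEC24A EMBV3_06601 and SAR1A EMBV3_43665), beside 8.45% of all tested probes. The 1 COPII probe below 0 in all 4 pairs was SEC23A, beside 7.52% of all, and in the authors' deposited table it was below 0 in 1 pair, pair 2. Pool levels without overlap and higher after vitrification were found for 2 COPII probes (SEC24D and SEC24A EMBV3_06601), beside 1.18% of all, and lower for 1 (SEC23A), beside 1.31% of all. Nothing is read from these shares, since the members were chosen with this contrast known.

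SEC24D stood near the top of the whole list, but it was selected on this value, so its ranks describe it and test nothing. It was among the 6 named genes of 13064 (0.0459%) with a mean ratio at least as high as its own. In pairs 1 to 4, 62, 331, 4 and 80 genes reached its value, which is 0.475%, 2.53%, 0.0306% and 0.612% of those tested. It thus ranked lower in pair 2 than in the other pairs. For SEC24A, 140 genes (1.07%) were at or above the mean ratio of its brightest probe. Its other probes were lower, at 0.22 and -0.07. The next coat gene, SAR1B, had 975 genes (7.46%) at or above it, SAR1A 1181 (9.04%), SEC23B 2498 (19.1%), SEC24B 2553 (19.5%) and SEC24C 3552 (27.2%). SEC31A and SEC13 were in the middle, with 53.2% and 53.9% of genes at or above them, and SEC23A was towards the bottom, with 89.8%. Neighbours in this order from SAR1B to SEC23A differed by less than the larger of their SDs over pairs.

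**Figure D3:**
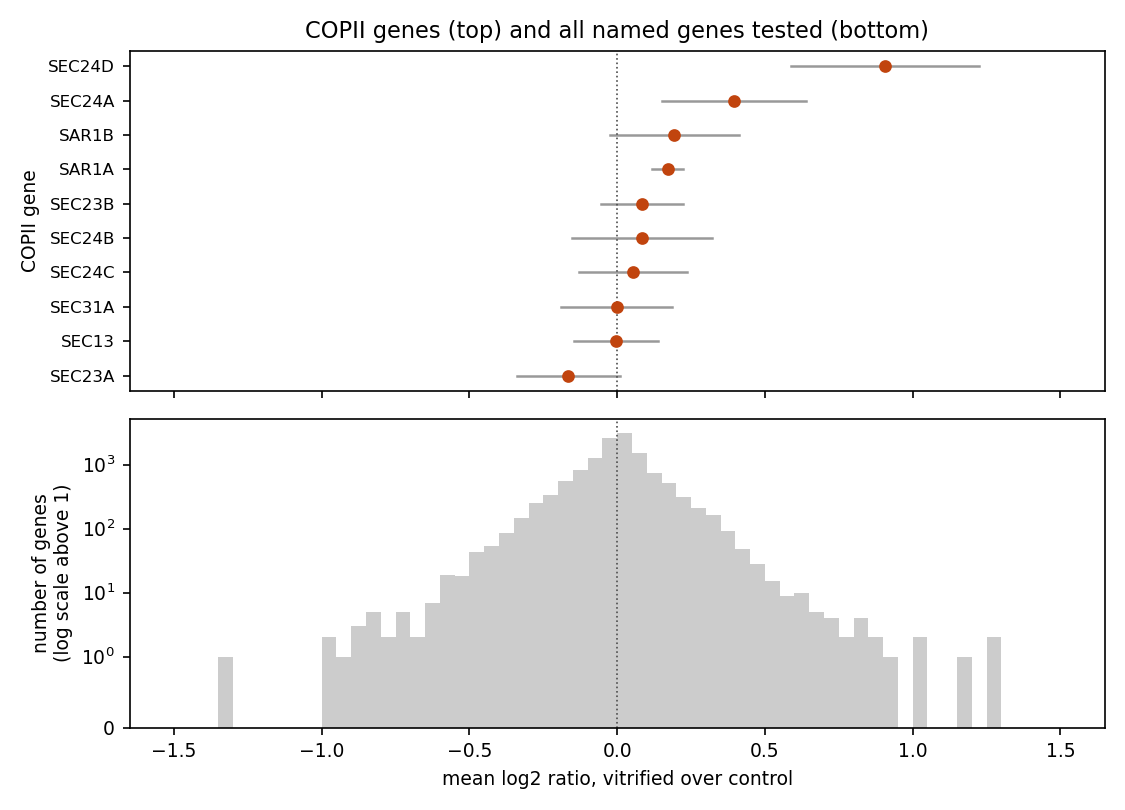
Mean log2 ratio of vitrified over control (horizontal axis). The top panel gives the brightest probe of each COPII gene with ± 1 SD over 4 pairs, and the bottom panel counts all 13064 named genes in bins of 0.05 on an axis that is logarithmic above 1. SEC24D, at 0.91, lies in the sparse upper tail, SEC24A at 0.40, and the other 8 genes between -0.17 and 0.19.

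The dye term, which is the average of Cy5 over Cy3 across both orientations, does not depend on the vitrified over control contrast and could be tested. With limma over the 4 pairs, 16 of 19 COPII probes were called at an adjusted p under 0.05, beside 54.4% of all tested probes (10046 brighter in Cy5 and 8783 brighter in Cy3). Of the 16, 12 were brighter in Cy5 and 4 in Cy3, namely SEC24C, SEC31A and the SEC13 probes EMBV3_41638 and EMBV3_40001. SEC24D was brighter in Cy5 by 0.15 (limma adjusted p = 0.0104), SEC24A EMBV3_06601 by 0.19 (adjusted p = 0.00171) and SEC24B EMBV3_20934 by 0.22 (adjusted p = 0.000524). SEC24C had a dye term of -0.25 (limma adjusted p = 0.000519) and SEC31A of -0.12 (adjusted p = 0.0150). For SEC24D the dye term was far smaller than the ratio, and each orientation gave a ratio above 0: 0.96, 0.63, 1.32 and 1.31 with the vitrified pools in Cy5 and 0.64, 0.42, 1.22 and 0.75 with them in Cy3, in pairs 1 to 4. For SAR1A EMBV3_43665 the dye term of 0.22 (limma adjusted p = 0.000635) exceeded the ratio of 0.17. The number of COPII dye calls depended on the normalization: with median centring in place of loess, 3 were called, beside 29.6% of all tested probes.

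**Figure D4:**
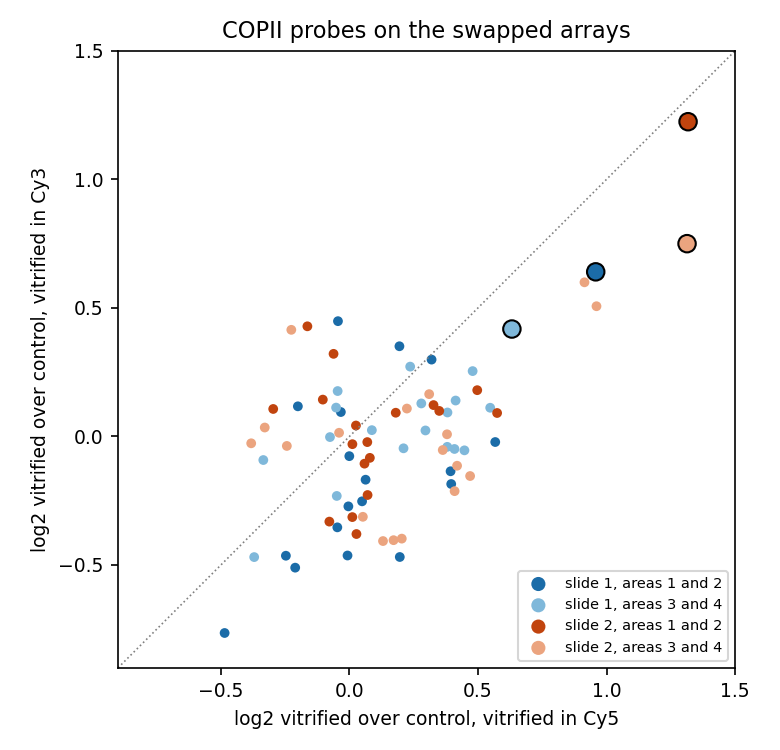
Log2 ratio of vitrified over control for each of the 19 COPII probes, on the array with the vitrified pool in Cy5 (horizontal axis) against its dye swap with that pool in Cy3 (vertical axis). Each point is a probe in 1 of the 4 pairs (colour), and the dotted diagonal marks equal ratios in both orientations. The 4 large outlined SEC24D points lie at 0.63 or more on the horizontal and 0.42 or more on the vertical axis, and the nearest others are SEC24A probes in pair 4.

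The values can also be read by slide, as a description. SEC24D averaged 0.66 on the first slide and 1.15 on the second, a difference of 0.49, and was above 0 on both. The limma fit with a slide term called 0 of 19 COPII probes and 0% of all probes, with a smallest adjusted p of 0.9998. At an unadjusted p under 0.05 it had 1366 of all probes (3.95%). With 2 pairs a slide, the fit says nothing of whether COPII ratios were alike on both slides, and no p is given for SEC24D, which was chosen on these ratios.

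The 5 named genes whose 4 pair values came closest to those of SEC24D were chosen by root mean square distance over the pairs, among 13063 other genes. FOSL1, a subunit of the transcription factor AP-1, was closest at a distance of 0.11, with 0.67, 0.47, 1.13 and 0.94 in pairs 1 to 4. Like SEC24D, it was lowest in pair 2 and highest in pair 3. SPTY2D1, a histone chaperone gene, followed at 0.24. HSPA5 (BiP), an abundant endoplasmic reticulum chaperone, was at 0.33, with 0.75, 0.43, 0.77 and 1.45. HSPA5 was also lowest in pair 2 but highest in pair 4. DNAJB9, a co-chaperone of HSPA5, was at 0.34 and MANF, a secreted factor of the endoplasmic reticulum, at 0.35. The measure favours genes of like size, and each ratio within a pair comes from the same pools.

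The genes around the coat were taken from 5 lists of the steps before, beside and after it, and limma called 0 genes of any list in either direction over all probes. The list of COPII assembly and exit site genes had 8 of 16 tested genes above 0, with a median log2 ratio of 0.007. Both values include ALG2, at 0.29 ± 0.37, a glycosylation gene that shares its name with the exit site protein encoded by PDCD6. The 2 genes of this list with the same sign in all pairs were PEF1 and MIA3 (TANGO1). PEF1, a calcium-binding adaptor of the ubiquitin ligase that acts on SEC31A, was at -0.16 ± 0.12 (SD, n = 4). MIA3, which gathers procollagen at exit sites, was at -0.09 ± 0.05. Cargo receptors, which link cargo inside the reticulum to the coat, had 16 of 21 genes above 0 and a median of 0.05. Of these 21, 5 were above and 1 was below 0 in all pairs. Among all 13064 genes tested, 52.2% averaged above 0, 1196 were above 0 in all pairs and 976 were below. LMAN2, a lectin for high-mannose glycoproteins, was at 0.37 ± 0.10, although its other probes were at 0.04 to 0.13, and SURF4, a receptor for soluble cargo, was at 0.20 ± 0.12. The highest of the list, TMED2, a p24 receptor picked out for that reason, was at 0.58 ± 0.44 with 1 pair at -0.02 and its other probe at 0.26.

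COPI, the coat that brings proteins back to the reticulum, and its retrieval receptors had 9 of 16 genes above 0 and a median of 0.04. COPG2, a gamma subunit of that coat, was at -0.34 ± 0.20 (SD, n = 4), and ARFGAP2, a GTPase-activating protein for its GTPase ARF, at 0.32 ± 0.04. Tethers and SNAREs, which dock and fuse the vesicles, had 15 of 25 genes above 0 and a median of 0.02. GOLGA2 (GM130) was at 0.33 ± 0.20 with its other probe at -0.01, and the Rab GTPase gene RAB2A was at 0.27 ± 0.28 with its other probe at -0.26. Regulators of export genes had 6 of 9 above 0 and a median of 0.01. MBTPS1, the protease that activates ATF6 and SREBP factors, was at -0.23 ± 0.19 with its other probe at 0.07, and TFEB, a transcription factor of lysosomal genes, at 0.18 ± 0.06. None of the 5 lists held a gene with a ratio as high as that of SEC24D. Their medians lay between 0.007 and 0.05, beside 0.004 for all genes, and the highest was that of the cargo receptors. No probe carried the symbol XBP1 or ATF6 in the annotation, so neither was analysed here.

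**Figure D5:**
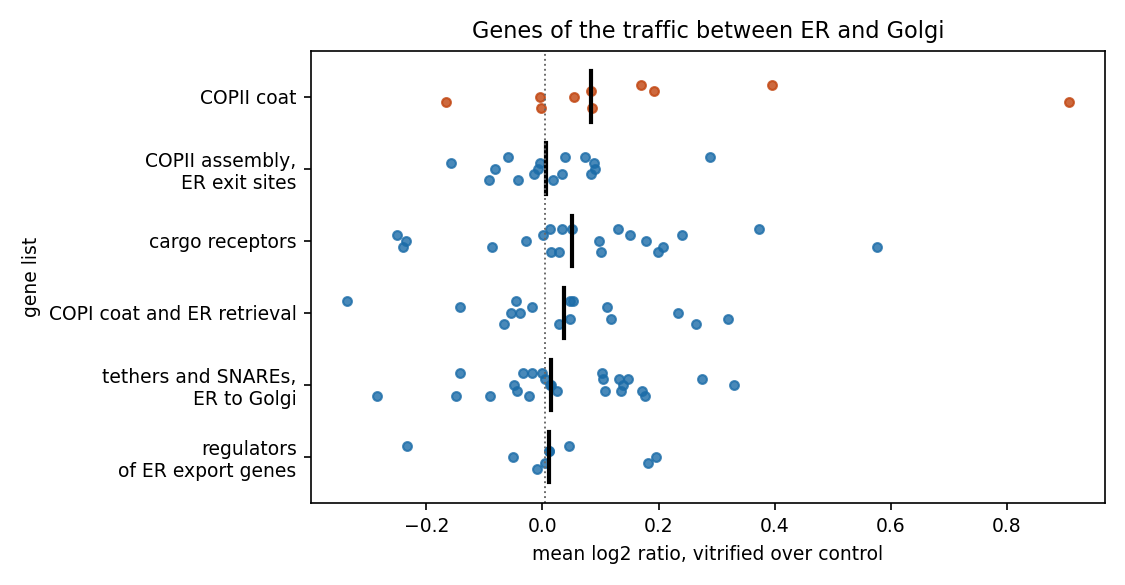
Mean log2 ratio of vitrified over control (horizontal axis) of each tested gene in the COPII coat and in 5 lists of neighbouring steps of traffic. Each point is the brightest probe of a gene the bar is the list's median and the dotted line is the median of all genes, 0.004. SEC24D at 0.91 is the highest point, TMED2 at 0.58 the next, and the medians lie between 0.007 and 0.08.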

How the data were processed

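RNA of pools of 10 embryos was amplified and hybridized in 2 colours on 8 arrays, per the labels. The deposited scanner tables hold, per the file headers, the mean intensity of each spot at 635 nm (Cy5) and 532 nm (Cy3) and its local background, not normalized. The authors' deposited value table holds log2 ratios, whose normalization stays unknown. Set against the scanner ratios over probes, each column correlated at r of 0.72 to 0.862 with vitrified over control (slopes 0.935 to 1.29), which gave its direction. Its column medians were 0.0031, -0.0012, -0.00032 and 0.0035 for slide 1 areas 1 to 4 and -0.0098, 0.00064, -0.010 and 0.010 for slide 2, so that its centring was near 0.

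Mean intensities were background-corrected by normexp (offset 50, median local background) and loess-normalized within each array, leaving control spots out of the curve, using R 4.3.3 and limma 3.58.1. Channel levels were scaled by Aquantile. A probe was tested when it exceeded the mean plus 2 SD of 153 negative control spots on at least 4 of 8 arrays in the vitrified or the control channel. Limma (lmFit, eBayes) fitted the 4 dye-swap pair means, the dye term and a slide term, with Benjamini-Hochberg adjustment over 34607 probes. The fits were tested on simulated data.

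The annotation, which can be old, gave 1 symbol to 21790 probes, several to 0 and none to 22004. Of its 15229 symbols, 12516 stood in the RefSeq gene table of NIAB-ARS_B.indTharparkar_mat_pri_1.0, all 10 COPII genes among them. The probe with the highest mean intensity stood for a gene. Named from each other list were genes that passed or, failing that, the 2 with the largest mean among those with the same sign in all 4 pairs. The members and lists were chosen with earlier results of these data known. Alternatives were other background corrections, normalizations, probe rules and detection limits, the deposited table, fits by replicate number, by array and with the slide as a block, and leaving out each pair.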

Additional observations from a re-analysis of the deposited data

Results flagged for a closer look

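Of 39 sets of 4 values checked for the COPII probes (ratios over pairs, and levels of vitrified and of control pools), 6 held a value that stood far from the other 3 by Dixon's test. Chance gives about 1 in 20, or 1.95 of 39, and the sets are not independent. The SEC24B probe EMBV3_43710 had a ratio of 0.14 in pair 3 and of -0.14 in each other pair. The SEC24A control pool of pair 4 was low, at 9.46 against 9.85 or more in the others. The SEC24C control pool of pair 2 was high, at 12.52. The SEC23A vitrified pool of pair 2 was low, at 6.97, as was the SAR1B vitrified pool of pair 4, at 11.5. The SEC13 vitrified pool of pair 2 was high, at 8.37. SEC24D had no such value.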

How the results depend on the processing

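SEC24D kept a log2 ratio above 0 under every alternative run, from 0.66 with the first slide alone to 1.15 with the second alone, and from 0.79 to 1.03 with 1 pair left out. It was 0.82 in the authors' deposited table, and its excess over the mean of the other SEC24 genes ranged from 0.59 to 0.87. The COPII median of 0.084 was 0.020 with median centring, 0.109 on the second slide alone and 0.138 over the 6 genes above background on all arrays in both channels. Leaving out 1 pair moved it between 0.0617 (without pair 4) and 0.143 (without pair 1). SAR1A was 0.08 as the mean over probes, which averages in its dimmer probes. Dye calls among COPII probes dropped from 16 to 3 with median centring, and over all tested probes from 54.4% to 29.6%, and the cause was not tested. Limma on 8 arrays as independent called 617 probes (1.78%), but counts each pool more than once if neighbouring areas share pools. By replicate number, or with the slide as a block over pairs, limma called 0 probes, with smallest adjusted p of 0.109 and 0.598 and 5154 and 2506 probes at an unadjusted p under 0.05. Of the 19 probes, 6 were above background on all arrays in both channels. The other 13 all missed the limit on the second slide area 1, and with a limit from the median and median absolute deviation, added after seeing the data, 18 passed.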

Other observations

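The RefSeq gene table places several coat genes on shared chromosomes of NIAB-ARS_B.indTharparkar_mat_pri_1.0. SEC24A and SAR1B stand next to each other on chromosome 7, with 0 protein-coding genes between them. Their log2 ratios in pairs 1 to 4 were 0.27, 0.33, 0.22 and 0.76 for SEC24A and 0.31, 0.25, 0.34 and -0.13 for SAR1B, close in the first 3 pairs and apart in pair 4. SEC24B and SEC24D lie on chromosome 6 with 32 protein-coding genes between them, and their mean ratios were 0.08 and 0.91. SEC31A is on the same chromosome. SEC24C and SAR1A lie on chromosome 28 with 41 genes between them, at 0.05 and 0.17.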
